A study of Mus musculus with 6 samples.

Results

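The genes Atrn, 4930402H24Rik and A730017L22Rik lie side by side on mouse chromosome 2 and were read in RNA sequencing libraries of CD4 T cells with and without the arginine methyltransferase gene Prmt5. They are 3 of 54532 gene rows in the expression table, and 3 of the 14944 genes with a mean level of at least 1. They were chosen by their values: every library labelled knockout (KO) lay apart from every library labelled wild type (WT). The KO against WT values are therefore given below as a description, without a test. The 6 libraries came from whole CD4 T cells of spleen and lymph nodes of C57BL/6 mice, 3 WT (replicates 1, 2 and 4) and 3 KO (replicates 1, 4 and 5). The WT animals carried the genotype iCD4-PRMT5fl/fl, that is floxed Prmt5 alleles, and the KO animals iCD4-PRMT5 delta/delta, that is deleted alleles. Beyond the letters iCD4, no label used here names the promoter that drives the deletion. The titles of all 6 samples call the cells resting, while their treatment label gives stimulation through CD3 and CD28 for 48 h, so both groups share the same uncertain activation state. A code in the sample descriptions places WT 1, WT 2 and KO 1 in library series 22 and WT 4, KO 4 and KO 5 in library series 24.

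Atrn encodes attractin, a large glycoprotein with a membrane-anchored form and a secreted form, first described on activated T cells. In mice its loss gives the mahogany coat colour, because attractin takes part in the signal that agouti protein passes to melanocortin receptors, and it also leads to degeneration in the brain. The protein product of 4930402H24Rik is the mouse counterpart of the human DNAAF9 protein, which is grouped with the factors that help assemble the dynein motors of cilia. A730017L22Rik is a noncoding transcript. Prmt5 encodes the main enzyme that places symmetric dimethyl marks on arginine residues, among them those of splicing proteins.

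The annotation places the starts of these genes close together, facing away from each other. In GENCODE M21 (GRCm38), Atrn (ENSMUSG00000027312.14) runs along the plus strand at chr2:130906495-131030333 and has 5 transcripts. A730017L22Rik (ENSMUSG00000085566.1) runs along the minus strand at chr2:130873059-130906396, has 3 transcripts, and is listed as a processed transcript there and as a long noncoding RNA in RefSeq. Its start lies 98 bases from that of Atrn. The third gene, 4930402H24Rik (ENSMUSG00000027309.18), is protein coding, lies on the minus strand at chr2:130706200-130906406 and has 17 transcripts, the outermost of which starts 88 bases from Atrn.

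For 4930402H24Rik the name divergent neighbour rests on that 1 transcript of 17. This transcript, 4930402H24Rik-214, carries annotation support level 5, the weakest grade. The next 4930402H24Rik start lies at position 130840145, 66.3 kb away, and 6 of the 17 transcripts begin in the exon there. RefSeq ends the gene at 130840645 and so gives it no start beside Atrn. All 3 A730017L22Rik transcripts begin beside Atrn, and their gene lies within the span of 4930402H24Rik on the same strand. The minus-strand genes share 186 exonic bases, which make up 3.09% of the exonic bases of A730017L22Rik and 1.75% of those of 4930402H24Rik. The sources used here do not say how the authors' counting divided reads over the shared bases, so the split between these genes is uncertain there. Neither shares an exonic base with Atrn (0 bases).

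The sequences before these starts are shown because the members sit around them. They are from RefSeq (GRCm38.p6), where a promoter entry was matched for 3 of 3 members. The first, at chr2:130906407-130906494, fills the gap between the Atrn start and the outermost 4930402H24Rik start and is written along the plus strand, 5′ to 3′. The second, at chr2:130840146-130840395 on the minus strand, is the 250 bases before the inner 4930402H24Rik start at position 130840145. Capitals mark matches on either strand to the GC box GGGCGG, the motif of Sp1-type factors.
Gap between the Atrn and 4930402H24Rik starts: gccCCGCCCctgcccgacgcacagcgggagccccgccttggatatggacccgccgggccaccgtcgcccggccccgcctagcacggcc
Before the inner 4930402H24Rik start: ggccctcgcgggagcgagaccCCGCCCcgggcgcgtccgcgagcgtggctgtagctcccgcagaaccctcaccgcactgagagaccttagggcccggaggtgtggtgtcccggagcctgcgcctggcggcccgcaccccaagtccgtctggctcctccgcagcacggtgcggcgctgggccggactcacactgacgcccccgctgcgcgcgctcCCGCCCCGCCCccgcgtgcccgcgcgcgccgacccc

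Both stretches were rich in G and C. The 88-base gap was 80.7% G or C and held 12 CpG dinucleotides, against medians of 54.5% and 2 over the same window of 32817 RefSeq promoters, of which 91.3% held fewer CpG. It held 1 GC box match, a motif that 23.2% of those windows carried. The 250 bases before the inner start were 78.4% G or C with 37 CpG, against medians of 52.4% and 6, and 97.8% of promoters held fewer CpG. They held 3 GC box matches, 2 of which overlap, where 32.7% of promoters held at least 1. On neither strand did a stretch hold the letters of the CCAAT box, the TATAAA of the TATA box, the TGACGTCA of the cyclic AMP response element, the GGAAAA of the NFAT core, the CCGGAAG of the ETS core or the CACGTG of the E box. RefSeq extends Atrn outward to position 130906430, so that part of the gap lies inside its widest model of the gene. The 250-base stretch likewise lies inside the widest RefSeq model of 4930402H24Rik, which ends at 130840645.

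Levels are robust FPM, the authors' FPM (fragments assigned to a gene, set against library size) computed with robust size factors and rounded to 1 decimal. Atrn, the plus-strand gene, measured 86.4, 86.3 and 87.1 robust FPM in WT replicates 1, 2 and 4, and 44.4, 43.4 and 41.7 in KO replicates 1, 4 and 5. The groups did not overlap, and each of the 3 KO libraries held close to the same, lower level. The means were 86.6 ± 0.436 in WT and 43.2 ± 1.37 in KO (SD, n = 3), so the WT level was 2.01 times the KO level. On the log2(value + 0.5) scale, fitted with limma with a term for library series, the KO minus WT difference was -0.99 with a standard error of 0.106 and a 95% interval of -1.23 to -0.74. Within library series 22 the difference was -0.95, and within series 24 it was -1.03. The interval of the KO minus WT difference makes no allowance for the choice of Atrn by this same contrast, so its position is no test. The same holds for the intervals of the neighbours given below. After adjustment over all genes, limma called none of the members between genotypes. Atrn is measured in bulk RNA, where fewer cells of a type and less RNA per cell cannot be told apart, and this holds for its neighbours too.

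A730017L22Rik, the noncoding gene that starts beside Atrn, was likewise lower in the KO libraries. It measured 16.5, 13.3 and 11.7 robust FPM in WT 1, 2 and 4 and 6.6, 5.7 and 6.5 in KO 1, 4 and 5. The WT libraries were spread more widely than the KO libraries, but the lowest of them stayed above the highest KO library. The means were 13.8 ± 2.44 in WT and 6.27 ± 0.493 in KO (SD, n = 3), and the WT level was 2.21 times the KO level. The log2 difference, KO minus WT, was -0.999 (standard error 0.156, 95% interval -1.36 to -0.64), with -1.11 within series 22 and -0.89 within series 24.

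The other minus-strand gene went the opposite way. 4930402H24Rik measured 26.4, 23.4 and 27.8 robust FPM in WT 1, 2 and 4 and 47.2, 47.8 and 47.2 in KO 1, 4 and 5. The KO libraries were nearly equal to each other and all above the WT libraries. The KO mean was 47.4 ± 0.346 and the WT mean 25.9 ± 2.25 (SD, n = 3), so that the KO level was 1.83 times the WT level. Its log2 difference was 0.84 (standard error 0.118, 95% interval 0.56 to 1.11), with 0.91 within series 22 and 0.76 within series 24.

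**Figure D1:**
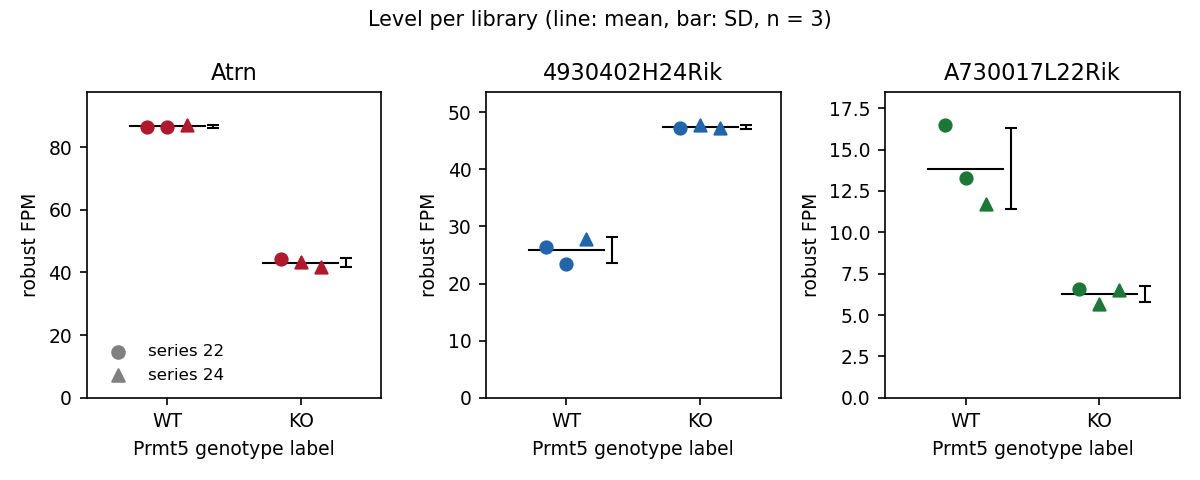
Level of Atrn, 4930402H24Rik and A730017L22Rik in each library, in robust FPM on axes that start at 0, with WT on the left and KO on the right of each panel. Circles are libraries of series 22 and triangles those of series 24, lines are means and bars are SD (n = 3). Atrn and A730017L22Rik are lower in every KO library and 4930402H24Rik is higher in every KO library, the pattern by which the genes were chosen.

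The spread among libraries of a genotype differed between the members. The coefficient of variation of Atrn was 0.503% over WT and 3.16% over KO, where the median over all genes tested was 16.1% and 11.3%. That of 4930402H24Rik was 8.69% over WT and 0.731% over KO. A730017L22Rik varied by 17.7% over WT, close to the median gene, and by 7.87% over KO. Each of these values comes from 3 libraries. Genes chosen because their groups do not overlap tend to have a small spread within a group, and the medians include genes of low level, so these values describe the members and set them apart from nothing.

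Per kilobase of exon, counting all annotated exons of a gene, the order of the members changed with genotype. In WT, Atrn stood at 6.56 ± 0.033 robust FPM per kb, above 4930402H24Rik at 2.43 ± 0.211 and A730017L22Rik at 2.3 ± 0.407 (SD, n = 3), and the lower pair overlapped across libraries. In KO, 4930402H24Rik came first with 4.45 ± 0.0325 per kb, then Atrn with 3.27 ± 0.103 and A730017L22Rik with 1.04 ± 0.0821 (SD, n = 3). The 3 members did not overlap there.

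Ratios within a library do not depend on how the libraries are scaled. The level of 4930402H24Rik was 0.306, 0.271 and 0.319 times that of Atrn in WT 1, 2 and 4 and 1.06, 1.1 and 1.13 times in KO 1, 4 and 5, a ratio 3.68 times as high in KO. The same neighbour relative to A730017L22Rik stood at 1.6, 1.76 and 2.38 in WT 1, 2 and 4 and at 7.15, 8.39 and 7.26 in KO 1, 4 and 5, a ratio 3.98 times as high in KO. Both ratios had to separate WT from KO, because the members were chosen by values that lay apart in these opposite directions. They are given as a description. By contrast, A730017L22Rik relative to Atrn was 0.191, 0.154 and 0.134 in WT 1, 2 and 4 and 0.149, 0.131 and 0.156 in KO 1, 4 and 5. These ratios overlapped, with means of 0.16 ± 0.0287 and 0.145 ± 0.0126 (SD, n = 3).

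**Figure D2:**
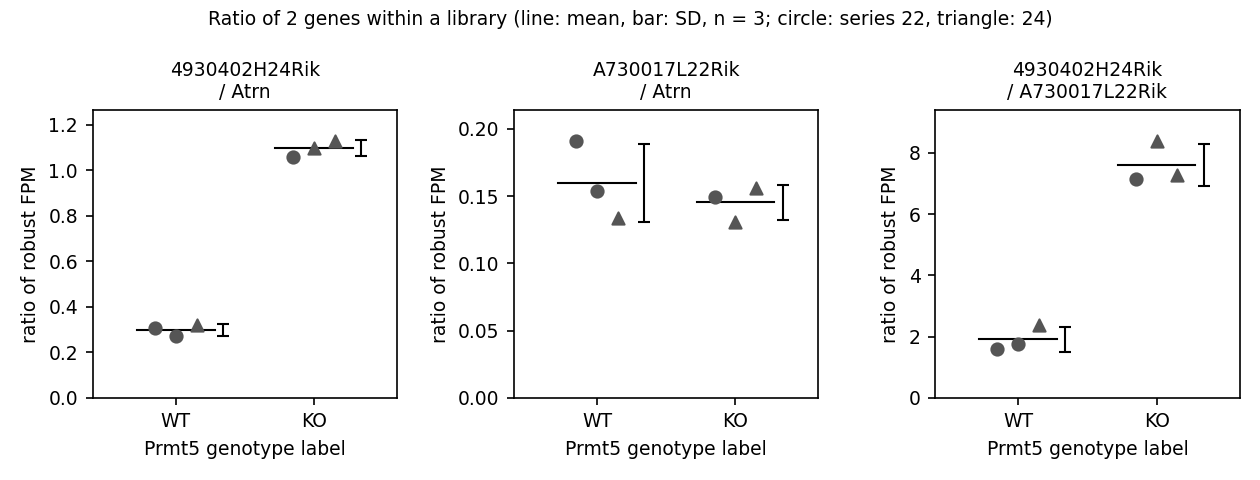
Ratio of robust FPM between pairs of members within each library, for WT and KO, with lines for means and bars for SD (n = 3), circles for series 22 and triangles for series 24. The ratios that involve 4930402H24Rik separate WT from KO, as the choice of the members fixed. The ratio of A730017L22Rik to Atrn, in the middle panel, runs from 0.134 to 0.191 in WT and from 0.131 to 0.156 in KO.

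Values that did not overlap between KO and WT were found for 268 of 14944 genes with KO lower (1.79%), for 163 with KO higher (1.09%), and so for 2.88% in either direction. Because the members were selected on this very contrast, their 3 of 3 is no result. The gap between the nearest KO and WT library, on the log2(value + 0.5) scale, was 0.95 for Atrn, the widest among the genes lower in KO. A730017L22Rik had the next widest gap, 0.78, followed by Gm27008 with 0.66 and Prmt5 with 0.51. Among genes higher in KO, 4930402H24Rik had the widest gap, 0.75, ahead of Gm9522 with 0.62 and the immunoglobulin segment Ighv1-4 with 0.51. The median gap was 0.071 among the genes lower in KO and 0.053 among those higher. By size of the log2 difference, A730017L22Rik held rank 4 and Atrn rank 5 among the 268 genes lower in KO. By the same measure, 4930402H24Rik held rank 5 among the 163 higher. As a general measure of the same contrast, limma called 0% of the 14944 genes between genotypes at an adjusted p under 0.05. An unadjusted p under 0.05 was found for 37 of them, 12 higher and 25 lower in KO. This is far below a share of 0.05 of all genes, so a gene that was not called is not shown to be unchanged.

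**Figure D3:**
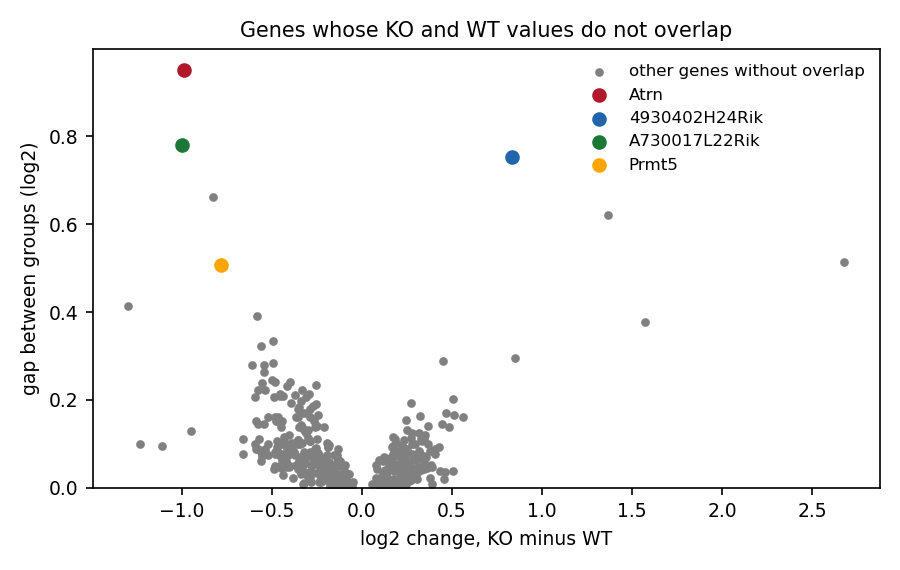
Genes whose KO and WT libraries did not overlap, by the KO minus WT log2 difference (horizontal axis) and by the gap between the nearest KO and WT libraries (vertical axis, log2). Atrn lies at a gap of 0.95, A730017L22Rik at 0.78, 4930402H24Rik at 0.75 and Prmt5 at 0.51, while most other genes lie near the bottom. The members were chosen on this contrast.

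Library series is not the contrast by which the members were chosen, and it could be tested, although genes whose groups do not overlap tend to vary little within a group, series included. Atrn differed by -0.02 (log2, series 24 minus 22, 95% interval -0.27 to 0.22, limma adjusted p = 0.962), 4930402H24Rik by 0.08 (-0.19 to 0.36, adjusted p = 0.849) and A730017L22Rik by -0.22 (-0.58 to 0.14, adjusted p = 0.73). None of the 3 was called, where 0.141% of all genes (21 of 14944) were. The most significant of those were the heat shock genes Hspa1b and Hspa1a, lower in series 24 by log2 differences of -4.04 and -3.92 (limma adjusted p = 0.00281 for both), and Tnfaip3, an inhibitor of NF-kB signalling, at -2.31 (limma adjusted p = 0.003442). These genes had the smallest p for series of all genes, so their differences set no scale for the members. The intervals of the members do not show that the members were equal in both series.

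An interaction term gave how far the KO minus WT difference itself differed between the series. Groups that do not overlap fix the sign of that difference in both series, so the choice of the members bears on this term, and it is given as a description with no test. It was -0.07 for Atrn (log2, 95% interval -0.53 to 0.39), -0.15 for 4930402H24Rik (-0.68 to 0.38) and 0.22 for A730017L22Rik (-0.58 to 1.02). Over all genes, limma called 0% for this term, and 369 genes had an unadjusted p under 0.05. The members' intervals are wide beside the differences themselves. The p-values measure the spread between the samples, which the series' design text calls biological replicates.

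The genes around the members on chromosome 2 gave another comparison. Within 1 Mb of the Atrn start, 27 genes were tested, and none of the 24 other than the members separated KO from WT (0 lower and 0 higher, against 1.79% and 1.09% of all genes). Their log2 differences ran from -0.36 for Rnf24 to 0.27 for Ap5s1, with a median of 0.04 against 0.01 over all genes. For 21 of the 24 the 95% interval of the difference stayed within 0.8 of 0. None exceeded 0.5 in either direction, as 2.28% of all genes did. With 24 genes, these counts of 0 are near the background and do not set the surroundings apart from it.

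The nearest tested gene after Atrn on its right side was Siglec1, a macrophage receptor whose start lies 180.3 kb away, at 5 ± 2.23 robust FPM in WT and 6.2 ± 4.16 in KO (SD, n = 3). The nearest on the left was Itpa, an enzyme that clears inosine triphosphate, which starts 238.9 kb away and stood at 21.1 ± 3.76 in WT and 20.5 ± 2.1 in KO. Its log2 difference was -0.02 (95% interval -0.42 to 0.38). Ddrgk1, Lzts3, Fastkd5, Ubox5, Mrps26, 9530056E24Rik and Ptpra followed on the left, and 1700037H04Rik, Cenpb, Cdc25b, Spef1, Ap5s1, Mavs and Pank2 on the right. All 16 overlapped between KO and WT. None was called by limma, which sets them apart from nothing, since no gene was called between genotypes, Prmt5 included. Pank2, a coenzyme A synthesis enzyme whose start is 356 kb from that of Atrn, had WT levels of 64.2, 74.6 and 89.9 robust FPM and KO levels of 81.9, 81.4 and 84.4.

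Within 5 Mb, 89 genes besides the members were tested, of which 2 lay lower in every KO library (Mrps5 and Plcb4) and 2 higher (Itpripl1 and Polr1b). These counts lie near the 1.79% and 1.09% of all genes. The gaps of these genes were 0.01 to 0.03, beside 0.75 to 0.95 for the members. The members were chosen because their groups lay apart, so this contrast follows in part from the choice. The closest of them, Polr1b, a subunit of RNA polymerase I, starts 1.81 Mb from Atrn. Pseudogenes lie within the members' spans: Gm14049 in Atrn was listed at 0.4 to 1.8 robust FPM, Gm14057 in 4930402H24Rik at 0.3 to 0.6, and Gm14048 in both minus-strand genes at 0.1 to 0.4.

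**Figure D4:**
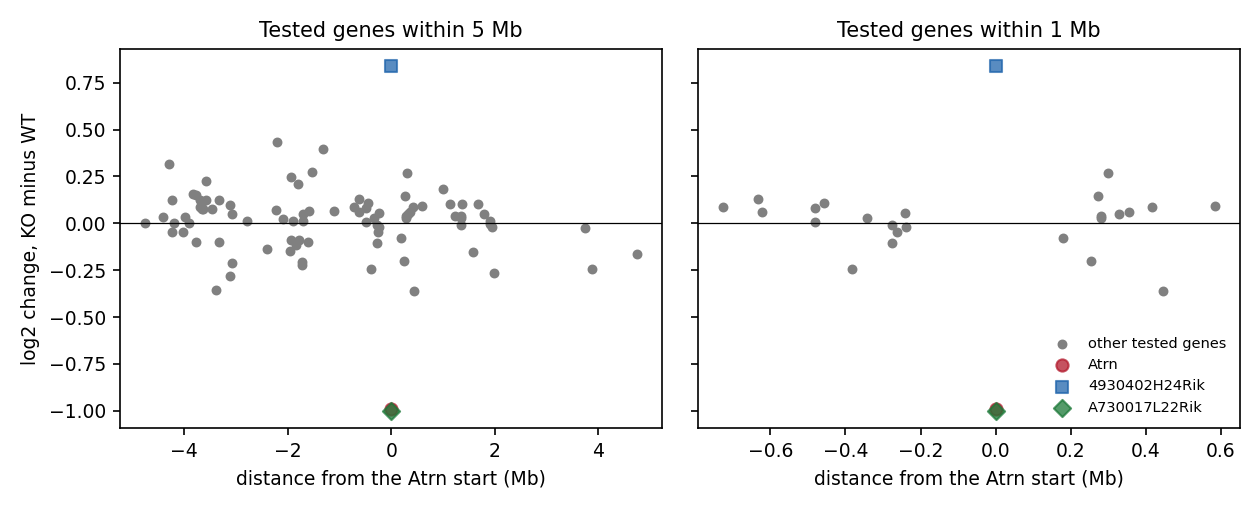
KO minus WT log2 difference of each tested gene on chromosome 2 against the distance of its start from the Atrn start, within 5 Mb on the left and within 1 Mb on the right. The 3 members stand at 0.84 and near -1 at distance 0, Atrn under A730017L22Rik, while the other genes within 1 Mb lie between -0.36 and 0.27. The members were chosen because their groups lay apart, so this contrast follows in part from the choice.

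Other genes of the pathways of attractin and of the dynein assembly factors were read in the same libraries. Of 17 names related to attractin, 16 were found in the table and 7 passed the minimum mean. None was called by limma (0 of 7, as 0% of all genes), 1 was lower in every KO library and 0 were higher, where 1.79% and 1.09% of all genes were. With 7 genes these counts are too small to set the list apart from that background. Their median log2 difference was 0.02, over a range of -0.39 to 0.14, beside 0.01 over all genes. The melanocortin receptors themselves all stayed under the minimum mean.

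Atrnl1, the closest relative of Atrn, measured 17.1, 17.0 and 21.3 robust FPM in WT 1, 2 and 4 and 18.4, 18.0 and 27.9 in KO 1, 4 and 5. The groups overlapped, and the interval of the log2 difference was -0.32 to 0.5. Mgrn1, a ubiquitin ligase whose mutation gives a mahogany-like coat, stood at 31.7 ± 5.58 in WT and 33.3 ± 2.24 in KO (SD, n = 3). Dpp4, the T cell surface peptidase CD26, stood at 120.0 ± 15.5 and 120.0 ± 9.25. Rnf157, a relative of Mgrn1, was the gene lower in every KO library, with 11.5, 12.8 and 12.2 in WT and 10, 7.8 and 9.0 in KO. It was not called by limma, as no gene was.

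Of 25 names of dynein assembly factors, 19 were found and 13 passed the minimum mean. None of the 13 was called or separated KO from WT, as 2.88% of all genes did, so that a count of 0 is near the background. Their log2 differences ran from -0.34 (Lrrc6) to 0.16 (Dnaaf2) with a median of 0.02. The difference of 4930402H24Rik, 0.84, lay outside that range. This gene was chosen because its groups lay apart, so the contrast follows in part from the choice.

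**Figure D5:**
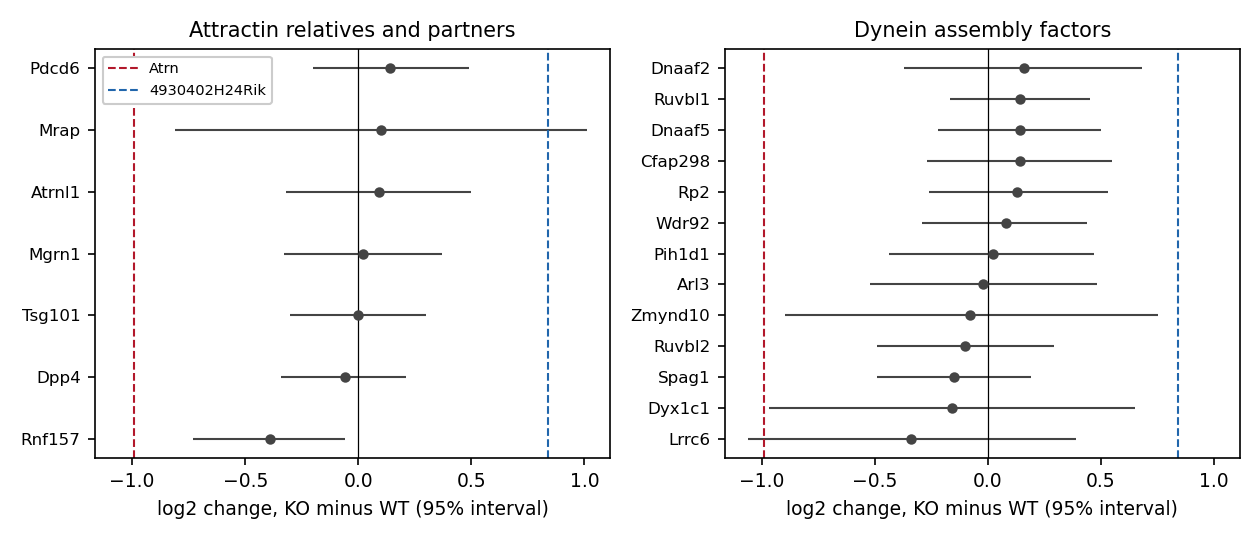
KO minus WT log2 difference with its 95% interval for the 7 tested relatives and partners of attractin (left) and the 13 tested dynein assembly factors (right). Dashed lines mark Atrn at -0.99 and 4930402H24Rik at 0.84, and every point estimate of the listed genes lies between -0.39 and 0.16. The marked genes were chosen because their groups lay apart, so their distance from the points follows in part from the choice.

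The genes whose pattern over the 6 libraries was most like that of Atrn were sought among the 8359 tested genes with a range of at least 0.5 on the log2(value + 0.5) scale. The 6 points fall into the KO and WT groups and share their scaling, so each Pearson r below mainly follows that split and is a description. Prmt5 itself had the highest r, 0.967, followed by Gm27008 (0.955), Gm6566 (0.947), Zfp948 (0.944) and the cation channel gene Hcn3 (0.932). The genes of most opposite pattern were Gm9522 (-0.928), the phospholipid transfer protein gene Pltp (-0.894), Maged1 (-0.881), Gm10501 (-0.844) and Gbgt1 (-0.844). Among the members, A730017L22Rik had an r of 0.958 with Atrn and 4930402H24Rik one of -0.984.

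Facts of the whole series bear on these values as follows. The targeted gene Prmt5 measured 34.9, 41.0 and 43.9 robust FPM in WT 1, 2 and 4 and 24.4, 23.8 and 21.5 in KO 1, 4 and 5, in the direction of the labels. A level of this kind also counts transcripts that lack a deleted exon. What the remaining Prmt5 level in the KO libraries stems from was not tested. Cd4 stood between 388.8 and 465.0 robust FPM, and Cd8a reached at most 2.1. The summed level of 12 T cell markers was 3440 to 4340 in WT and 3750 to 4370 in KO. Myeloid markers (16 genes) summed to 368 to 1330 in WT and 930 to 1960 in KO. Their median log2 difference, KO minus WT, was 0.44 (range -0.13 to 0.96) against 0.01 over all genes, and 0 of the 16 separated KO from WT, as 2.88% of all genes did. B cell markers (11 genes) summed to 491 to 508 in WT and 360 to 728 in KO. The B cell gene Cd79a reached at most 0.7 robust FPM, so that sum came from other listed genes. Cytotoxic and natural killer markers (10 genes) summed to 99 to 127 in WT and 109 to 136 in KO. Erythroid and platelet markers (10 genes) summed to 13.4 to 22.3 and 17 to 22, 3 of these genes being listed at 0 in every library. Of the 9 cytotoxic markers tested, 1, the perforin gene Prf1, was higher in every KO library, where 1.09% of all genes were. Prf1 measured 14.5, 18.8 and 19.7 robust FPM in WT 1, 2 and 4 and 22.4, 22.3 and 20.8 in KO 1, 4 and 5. With 9 genes, this count is too small to set the list apart from that background. The myeloid sum was 368, 582 and 1330 in WT 1, 2 and 4, where Atrn measured 86.4, 86.3 and 87.1, 4930402H24Rik 26.4, 23.4 and 27.8, and A730017L22Rik 16.5, 13.3 and 11.7. It was 930, 955 and 1960 in KO 1, 4 and 5. The part of the myeloid and cytotoxic levels in the KO minus WT differences of the members was not tested.

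A last measure was the level at 1965 olfactory and vomeronasal receptor genes, which T cells do not use. It was highest in WT 1, at 0.295 robust FPM per kb of exon, and 0.0141 to 0.0813 in the other libraries. Over the exonic length of the members, the WT 1 value corresponds to 3.9 robust FPM for Atrn, 3.14 for 4930402H24Rik and 1.77 for A730017L22Rik. With this background taken off each library, an alternative chosen after seeing the data, the log2 differences were -0.98, 0.89 and -0.998 in that order. Under spike-in scaling, which moves the median of all genes from 0.014 to -0.199, they were -1.21, 0.62 and -1.21, each in its former direction.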

How the data were processed

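The values analysed are the robust FPM that the authors deposited, an RPM-type unit of fragments per gene corrected by robust size factors and rounded to 1 decimal. Per the submitters' processing notes, the authors used DESeq, DESeq2, featureCounts and STAR on build GRCm38.p3; neither versions nor the role of each are stated. Libraries were strand-specific and depleted of ribosomal RNA, per the labels' protocols. For the strand setting of the counting, no statement was found in the sources used here. Among its 54624 rows, 92 were ERCC spike-ins, taking 0.752% to 1.59% of a column's sum and left out of the tests. Another 6 value columns matched no sample and were not used here. The sequencing depth is unknown, since rounding kept whole reads from being recovered, so no counting interval is given. Genes with a mean of at least 1 were kept and analysed as log2(value + 0.5), which understates the change of low genes. A model with genotype and library series was fitted over all 14944 genes with limma 3.58.1 in R 4.3.3 (mean-variance trend, two-sided, Benjamini-Hochberg adjustment, threshold 0.05), and a further model added their interaction. The procedure was tested on simulated data. Gene models are GENCODE M21. The members and gene lists were chosen with earlier results of these data known. Named genes are the members, Prmt5, the 8 nearest tested genes on each side, genes overlapping a member, genes of the attractin and dynein assembly lists, the 5 genes most like and most unlike Atrn, and the 3 genes of smallest p for library series. A gene each of the attractin and B cell lists is not reported here and was left out of their counts and sums. The genes with the next widest gaps, the ends of the range within 1 Mb, the separated genes within 5 Mb and the marker genes, Prf1 among them, were added after their values were seen. Alternatives varied the pseudocount, filter, scaling, variance model, covariates and threshold, and left out each library.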

Additional observations from a re-analysis of the deposited data

How the results depend on the processing

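The KO minus WT differences of Atrn, A730017L22Rik and 4930402H24Rik kept their direction in 18 of 18 alternatives. Much of this was fixed in advance. Groups that do not overlap keep their direction when a library is left out, and the filter and variance model do not enter the difference. Atrn moved to -0.95 with median-of-ratios scaling, and to between -1.03 and -0.95 when a library was left out. ERCC scaling gave -1.21 for Atrn, 0.62 for 4930402H24Rik and -1.21 for A730017L22Rik. Replicate numbers 1 and 4 occur in both genotypes, but no label says that they pair animals, and 2 pairs are too few to check it; with a replicate block the differences were -0.97 for Atrn, 0.80 for 4930402H24Rik and -1.12 for A730017L22Rik, and 5 genes of all were called between genotypes in place of 0. The members' series effects were called in none of 15 alternatives. The number of all genes called for library series, 21, was 54 with a minimum mean of 5, 10 with ERCC scaling, 0 without the variance trend, 37 with robust shrinkage and 42 at a threshold of 0.1. Leaving out a library gave 0 (without WT 4 or without KO 1) to 111 (without WT 1), with 7 without WT 2, 44 without KO 4 and 8 without KO 5. ERCC scaling called 8 genes for the interaction. Within 1 Mb of Atrn, 2 genes were lower and 1 higher in every KO library, all of them members. Widening this to 5 Mb gave 4 and 3. Total-sum scaling gave 2 higher, when 3.05% of all genes lay higher in place of 1.09%. Leaving out a library gave 2 to 4 lower and 1 to 11 higher. The 4 lower came without KO 5, when 926 of 14944 genes lay lower in place of 268. The 11 higher came without WT 4, when 25.2% of all genes lay higher. These counts thus moved together with those over all genes. For all these changes the cause was not tested. With 3 libraries a group and unknown depth, precision is limited most for A730017L22Rik, the lowest member.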
